A study of Homo sapiens with 2 samples.

Results

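The matrix metalloproteinase (MMP) genes that lie side by side on chromosome 11q22 were examined in SKOV3 ovarian carcinoma cells after RUNX2 knockdown. The members were every non-control probe whose RefSeq accession belongs to MMP1, MMP3, MMP7, MMP8, MMP10, MMP12, MMP13, MMP20 or MMP27. The arrays carried 10 such probes for the 9 genes, out of 41000 different probes and 17240 named genes. MMP12 had 2 probes and each of the other genes had 1. The MMP1 probe was printed in 10 spots per array, and every other member probe in 1 spot.

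SKOV3 is an established human ovarian adenocarcinoma line. The knockdown clone cl-sh3 was stably transduced with a lentiviral pLKO.1-puro vector that expresses a short hairpin RNA against RUNX2, and was selected in puromycin. The control clone carried the same vector with a scramble sequence and went through the same selection, so both clones share the vector and the drug. Each side of the comparison is 1 clone, and differences between clones of a line cannot be told apart from the effect of the hairpin. Labelled cRNA of both clones was hybridized together on Agilent 2-colour arrays of the human transcriptome. In hybridization 1 cl-sh3 was labelled with Cy5 and the control with Cy3, and in hybridization 2 the dyes were reversed. The 2 hybridizations used the same pair of RNAs and count as 1 replicate. No test between the clones was possible, so no p-value is given, and the gap between a probe's 2 ratios measures the error of labelling, hybridization and scanning.

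MMPs are zinc-dependent endopeptidases that are secreted or held at the cell surface as inactive proenzymes and cleave components of the extracellular matrix. Most of the 11q22 genes encode secreted enzymes of related sequence. The collagenases MMP1, MMP8 and MMP13 cleave native fibrillar collagen, while the stromelysins MMP3 and MMP10 cleave a broad range of other matrix proteins and also activate proenzymes. MMP7 is matrilysin, MMP12 is the macrophage elastase, MMP20 is enamelysin of developing teeth, and MMP27 is among the least studied members. In bone and cartilage, RUNX2 binds the MMP13 promoter and acts there together with the AP-1 factors of the FOS and JUN families. Several promoters of the cluster, that of MMP1 included, are known to respond to AP-1.

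Promoter sequence was held for 5 of the 9 genes (MMP7, MMP8, MMP10, MMP20 and MMP27) in the RefSeq table used here. MMP1, MMP3, MMP12 and MMP13 are not in it. The windows of MMP7 and MMP10 are shown because, of these 5 genes, MMP7 and MMP10 had the strongest signals over the negative control spots. Each window runs from 250 bases before to 50 bases after the annotated start on the minus strand of GRCh38.p14, at chr11:102530698-102530997 for MMP7 and chr11:102780579-102780878 for MMP10. Capitals mark the AP-1 element TGAGTCA, which was also searched on the other strand, as TGACTCA, and the TATA box TATAAA.
MMP7: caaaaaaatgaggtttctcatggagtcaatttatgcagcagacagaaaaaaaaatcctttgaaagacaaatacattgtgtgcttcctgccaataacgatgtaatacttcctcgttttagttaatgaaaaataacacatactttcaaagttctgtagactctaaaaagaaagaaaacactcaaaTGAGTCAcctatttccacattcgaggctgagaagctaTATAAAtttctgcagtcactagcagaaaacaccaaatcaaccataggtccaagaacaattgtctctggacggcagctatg
MMP10: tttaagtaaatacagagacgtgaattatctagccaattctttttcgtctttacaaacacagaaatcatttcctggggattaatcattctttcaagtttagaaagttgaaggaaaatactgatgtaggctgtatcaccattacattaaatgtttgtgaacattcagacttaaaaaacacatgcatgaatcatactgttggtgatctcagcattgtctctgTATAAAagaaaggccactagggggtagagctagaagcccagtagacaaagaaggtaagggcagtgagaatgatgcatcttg
The MMP7 window held 1 copy of the AP-1 element TGAGTCA, from -67 to -61 relative to the start. The windows of the other 4 genes held it on neither strand, and variants of it were not searched. Among 35116 promoter windows of the same length, 4.95% held that element. The RUNX core TGTGGT, searched on both strands as TGTGGT and ACCACA, was present in none of the 5 windows and in 13.1% of all windows. TATAAA, searched on the gene strand only, lay from -30 to -25 in MMP7 and from -31 to -26 in MMP10. It lay farther from the start in MMP20, from -72 to -67, and in MMP8, from -110 to -105, was absent from the MMP27 window, and was held by 7.33% of all windows.

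Across the arrays, the median spot signal was 451 and 507.5 in Cy3 and 902.5 and 684 in Cy5, over median local backgrounds of 43 to 46 and 164 to 166.5, and no spot was saturated. An RNA was counted as well above background when at least 50% of a probe's spots carried the scanner software's flag, and probes were kept when at least 1 of the RNAs passed in both hybridizations. Of the 36065 probes kept, 36060 had a ratio in both. A probe was called lower or higher when it changed at least 2-fold in the same direction in both hybridizations. Over all probes kept, 142 were called lower and 44 higher, or 124 and 77 when the arrays were centred on their median and not by loess. The targeted gene was called lower by the brightest of its 3 probes, at log2 ratios of -2.04 and -1.30. The other RUNX2 probes were at 0.17 and -0.13, and at -0.29 and -0.17. Of the markers of ovarian carcinoma cells, ERBB2, KRT8, KRT18, KRT19, EPCAM and PAX8 gave net signals at least 9.26 times the highest negative control spot of their channel. MUC16, MSLN and WT1 did not exceed 1.58 times that spot.

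The probes of the collagenases MMP1 and MMP13 read lower in cl-sh3, by 7.28-fold and 4.72-fold in the mean of both hybridizations. No other member of the cluster changed at least 2-fold in either hybridization. The MMP13 fold is against a cl-sh3 reading near background, and its log2 ratio of -2.24 moved between -1.64 and -3.81 with the processing. The MMP13 control signal was below the leukocyte probes described further on, so it was not by itself taken as proof of a transcript. All 10 member probes passed the filter. Of these, 2 were called lower, against 0.394% of all probes kept, and 0 were called higher, against 0.122%. The remaining 8 probes, of 7 genes, had mean log2 ratios between -0.16 and 0.22. Of the 8, 4 were below 0 in both hybridizations, as were 27.3% of all probes kept, and 3 changed sign with the dyes. The median over the 10 probes was -0.08, beside 0.01 over all probes kept. The other collagenase of the cluster, MMP8, was at 0.10 and -0.08, from a signal too low to be taken as a transcript.

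**Figure D1:**
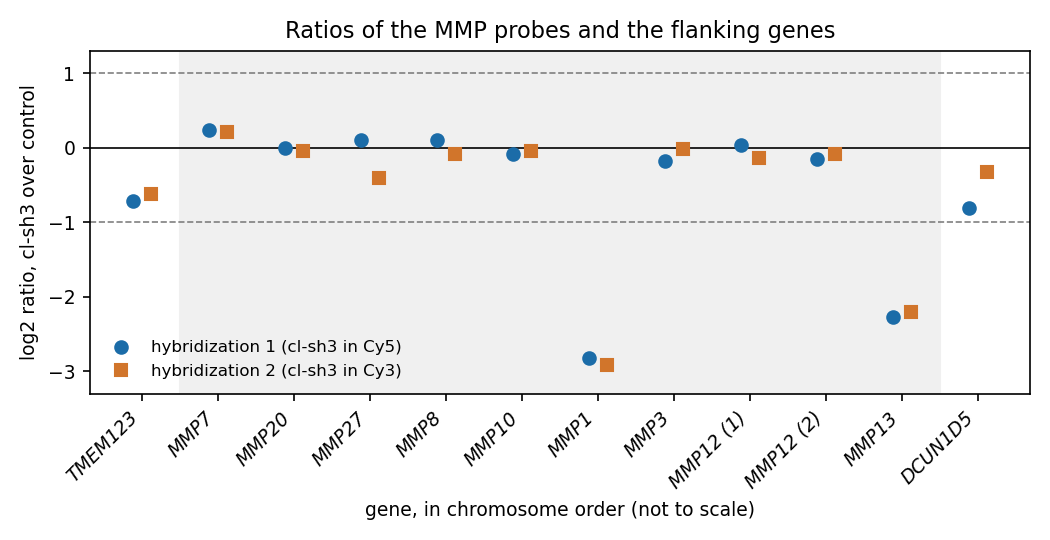
Log2 ratio of cl-sh3 over the control clone (y axis) for the 10 MMP probes (shaded) and the nearest named protein-coding gene on each side, in chromosome order and not to scale. Circles and squares are hybridizations 1 and 2, and dashed lines mark 2-fold. The MMP1 and MMP13 points lie between -2.91 and -2.21, and all other MMP points between -0.41 and 0.24.

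MMP1 encodes the interstitial collagenase, which opens the triple helix of fibrillar collagens. Its normalized intensity was 182123 in the control clone and 25751 in cl-sh3 in hybridization 1. In hybridization 2 it was 159165 in the control clone and 21220 in cl-sh3. Both readings of cl-sh3 therefore lay below both readings of the control, whichever dye cl-sh3 carried. The log2 ratio was -2.82 in hybridization 1 and -2.91 in hybridization 2, a difference of 0.08. Only 1 of the 36060 probes had a lower mean ratio.

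The repeated spots of the MMP1 probe showed how even this reading was. In hybridization 1 the 10 spots had log2 ratios from -2.96 to -2.65, with a median of -2.86 and an SD of 0.112. In hybridization 2 they ranged from -2.99 to -2.77, with a median of -2.89 and an SD of 0.073. All 20 spot ratios were more than 2-fold lower in cl-sh3, and the ranges of the 2 arrays overlapped. The spots share the RNAs and the array, so their SD measures error within an array and no difference between samples. Part of it was systematic. In array order, spots 1 to 4 read -2.74 to -2.65 in hybridization 1 and -2.99 to -2.97 in hybridization 2. Spots 5 to 10 read -2.96 to -2.86 and -2.91 to -2.77. The cause of this split was not tested. MMP1 was bright enough that the scanner software replaced high-gain readings by scaled low-gain readings. This was the case in all 10 spots of both RNAs in hybridization 1 and of the control in hybridization 2, and in 3 of the 10 spots of cl-sh3 in hybridization 2. In that channel the 3 low-gain spots had ratios from -2.97 to -2.87 and the 7 high-gain spots from -2.99 to -2.77. The ratios with either reading thus overlapped.

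**Figure D2:**
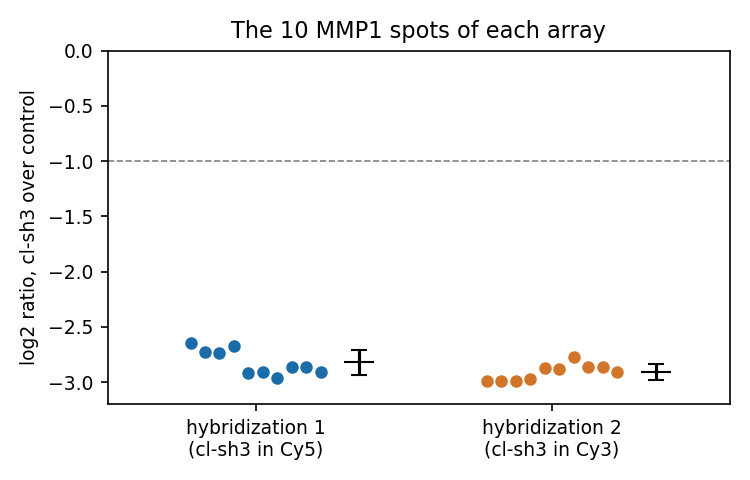
Log2 ratio of cl-sh3 over the control clone for each of the 10 MMP1 spots on each array (points), with the mean and SD over spots beside them, and the 2-fold line dashed. All spots lie between -2.99 and -2.65.

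MMP13 encodes collagenase 3, the collagenase of hypertrophic cartilage and bone. Its normalized intensity was 513 in the control clone and 106 in cl-sh3 in hybridization 1. In hybridization 2 it was 508 in the control clone and 110 in cl-sh3. The log2 ratios of -2.27 and -2.21 differed by 0.06. The control was well above background in both hybridizations, and cl-sh3 only in hybridization 2.

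The MMP13 signal in cl-sh3 was close to the background of the arrays. Net of the local background, the spot read 384 for the control and 132 for cl-sh3 in hybridization 1, and 492 and 68.0 in hybridization 2. The 153 negative control spots, which match no human transcript, had net medians of 63.5 and 32.5 in the channels of cl-sh3 in hybridizations 1 and 2. The MMP13 readings in cl-sh3 exceeded 98.0% of the negative control spots in each channel, but were 0.651 and 0.425 times the highest of them. The control readings were 2.60 and 3.21 times the highest. That is below the leukocyte probes described further on, at 4.52 to 7.14 times, so the control signal was not by itself taken as proof of an MMP13 transcript. The direction of the MMP13 difference was the same under every processing tried, whereas its size was not. The mean log2 ratio ran from -1.64 (3.11-fold) without background correction to -3.81 when the ratios that the scanner software had computed were used.

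**Figure D3:**
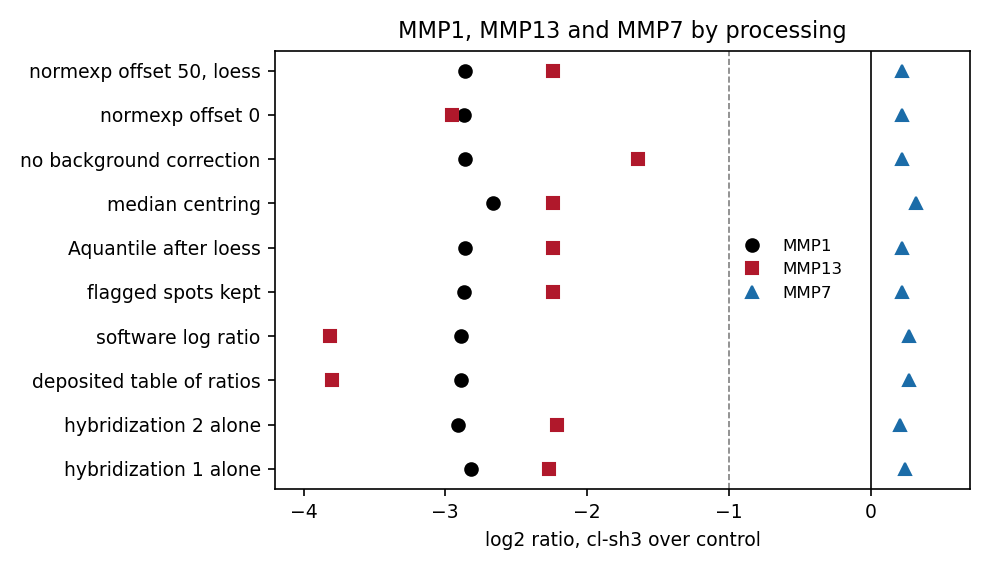
Log2 ratio of cl-sh3 over the control clone for MMP1, MMP13 and MMP7 under 10 ways of processing the arrays (rows), as the mean of both hybridizations except in the bottom 2 rows, with the 2-fold line dashed. MMP1 stays between -2.91 and -2.66, MMP13 spreads from -3.81 to -1.64, and MMP7 stays between 0.21 and 0.32.

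MMP7, matrilysin, is a small MMP without the hemopexin domain and is made mainly by epithelial cells. Its normalized intensity was 14567 in the control clone and 17150 in cl-sh3 in hybridization 1, and 15702 and 18162 in hybridization 2. Both cl-sh3 readings lay above both control readings. The log2 ratios of 0.24 and 0.21 amounted to 1.17-fold in the mean, well under the 2-fold rule, and were above 0 under every processing tried. Of all probes kept, 29.8% were likewise above 0 in both hybridizations. For the 10% of probes of similar brightness, the ratios of the 2 hybridizations differed by a median of 0.23.

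The stromelysins flank MMP1 on the chromosome, and neither was called. MMP10 had normalized intensities of 880 in the control and 831 in cl-sh3 in hybridization 1, and of 987 and 956 in hybridization 2. Its log2 ratios were -0.08 and -0.05. The net MMP10 signal was 4.49 to 6.22 times the highest negative control spot, about the level of the leukocyte probes described further on. It was therefore not taken as proof of a transcript. MMP3 was dimmer, with 175 in the control and 155 in cl-sh3 in hybridization 1 and 194 and 191 in hybridization 2, and its log2 ratios were -0.18 and -0.02. The net MMP3 signal exceeded the highest negative control spot in 1 of the 4 readings, that of the control in hybridization 2. At these signals no difference in MMP3 was detectable.

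The third collagenase, MMP8, is best known from neutrophils. Its normalized intensities were 548 in the control and 589 in cl-sh3 in hybridization 1, and 664 and 628 in hybridization 2. The order of the clones reversed with the dyes, and the mean log2 ratio was 0.01. The net MMP8 signal was 2.72 to 4.13 times the highest negative control spot. That is below the leukocyte probes described further on, at 4.52 to 7.14 times, so a difference in MMP8 may have gone unseen. MMP27 showed the widest gap between hybridizations among the members, with log2 ratios of 0.10 and -0.41. Its intensities of 410 and 438 in the control and cl-sh3 in hybridization 1, and of 327 and 247 in hybridization 2, also reversed order. The net MMP27 signal was 1.21 to 2.95 times the highest negative control spot, likewise below the leukocyte probes. A difference in MMP27 may therefore also have gone unseen.

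Both MMP12 probes read near background. The brighter probe had log2 ratios of 0.04 and -0.14, and the dimmer probe of -0.15 and -0.09, so the ratios of the probes overlapped. MMP20 had log2 ratios of -0.01 and -0.05. Its net signal was below the highest negative control spot in all 4 readings, and the control was not well above background in hybridization 2. No difference between the clones was detectable for MMP12 and MMP20 at these signals.

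**Figure D4:**
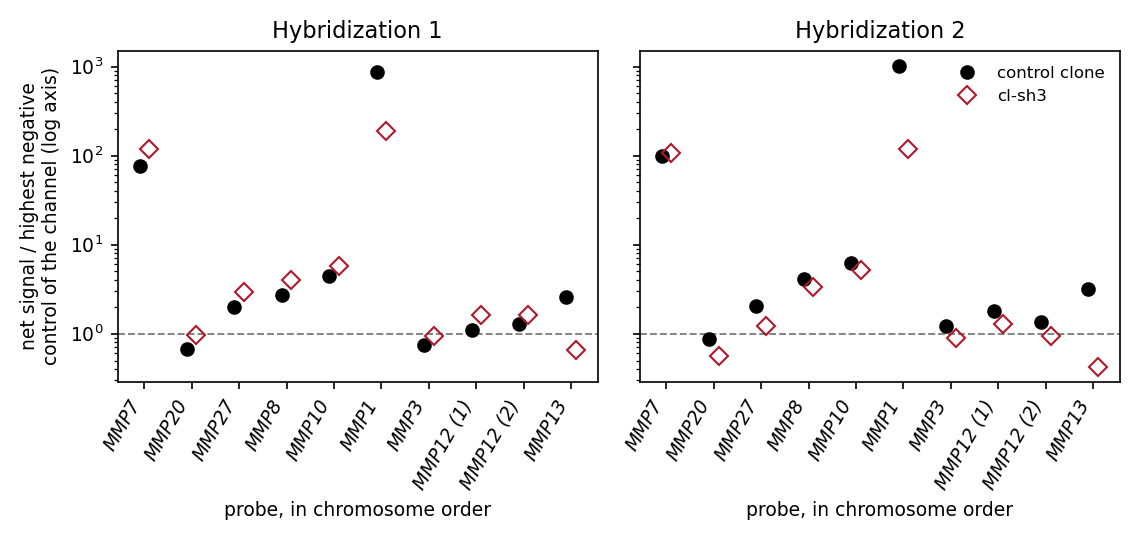
Net signal of each member probe divided by the highest negative control spot of the same channel (log axis, 1 at the dashed line), for the control clone (filled circles) and cl-sh3 (open diamonds) in each hybridization. The brighter MMP12 probe is numbered 1 and the dimmer 2. This scaling shows which readings rise above the controls and is not the normalization used for the ratios. MMP1 and MMP7 lie far above the line, MMP13 lies above it in the control and below it in cl-sh3, and MMP20 lies below it throughout.

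A signal above the negative control spots was not by itself taken as the presence of a transcript. The probes of CD3E, CD68 and CD14, which mark leukocytes, read 4.52 to 7.14 times the highest negative control spot in these cells. PTPRC, which all leukocytes carry, read 0.939 to 1.34 times that spot. The highest signal among the fibroblast, endothelial and neutrophil markers was that of COL1A2, at 2.82 to 3.85 times. The levels of the dimmer MMP probes are bounded by such readings, while their ratios near 0 are reported as measured. None of these 4 leukocyte markers was called, nor was any of the 4 fibroblast, 3 endothelial and 3 neutrophil markers that passed the filter. The medians of the fibroblast, endothelial and neutrophil lists lay between -0.12 and 0.08.

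The genes on either side of the cluster were lower by less than 2-fold. TMEM123, next to MMP7, had log2 ratios of -0.71 and -0.62, and a dimmer probe of it had -0.45 and -0.37. DCUN1D5, next to MMP13, had -0.81 and -0.32. Of 17 genes listed around the cluster, 15 were measured and 0 were called, with mean log2 ratios from -0.74 to 0.72 and a median of -0.01. In chromosome order, MMP3 and MMP12 lie between MMP1 and MMP13. Their ratios stayed between -0.18 and 0.04 in each hybridization, at signals near background where no difference was detectable.

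With this processing, no MMP encoded outside 11q22 was called lower. Of 14 such genes, 13 were measured and 0 were called, with mean log2 ratios from -0.12 to 0.40 and a median of 0.17. Over all probes kept, 0.394% were called lower and 0.122% higher. For a list this short, 0 calls is therefore at the background share, as in the other lists with 0 calls. The gelatinases MMP2 and MMP9, which degrade basement membrane collagen, had ratios of -0.03 and -0.13, and of 0.15 and -0.27. MMP14, a membrane-bound MMP that activates the MMP2 proenzyme, had 0.01 and 0.19. The normalized intensities of MMP2 (193 to 210) and MMP14 (128 to 147) were low, and the MMP14 control was well above background in 1 hybridization, so no difference was detectable for either. The dimmest of the 3 MMP19 probes had -0.60 and -0.70, without passing the 2-fold rule, while the brightest had 0.34 and 0.01. MMP19 was named after its values were seen. The paper that reported these data counts MMP19 among the genes lowered by RUNX2 knockdown. Ratios of MMP19 under other processing are not given here.

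The inhibitors also showed no called difference. TIMP1, the tissue inhibitor of metalloproteinases with the largest mean ratio, had log2 ratios of 0.16 and 0.52, and TIMP2 had -0.18 and 0.45. TIMP3 had -0.19 and 0.08, and TIMP4 had 0.00 and -0.17. All 6 inhibitors were measured, with a median of -0.02.

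Proteases that activate MMPs and the regulators of those proteases were measured for 14 genes, among them the plasminogen activators, and 0 were called. Their mean log2 ratios ran from -0.39 to 0.23, with a median of 0.04. Matrix proteins that MMPs cleave were measured for 14 of 15 listed genes, with 0 called, mean log2 ratios from -0.79 to 0.66 and a median of -0.04. Of the 14, 6 were below 0 in both hybridizations and 2 above, beside 27.3% and 29.8% of all probes kept.

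Among 16 measured AP-1, ETS and RUNX factors, which bind MMP promoters, RUNX2 itself was the only called gene and the median was 0.02. Of 13 cytokines, growth factors and receptors known to induce MMPs or to act upstream of them, 2 ligands were called lower. Over all probes kept the share was 0.394%, and the list was chosen with earlier results of these data known. IL1A, an interleukin-1 ligand that induces MMP expression in many cells, had log2 ratios of -2.72 and -2.18. FGF2, basic fibroblast growth factor, had -1.16 and -1.09. The median of the list was -0.02, and 4 of its 13 genes were below 0 in both hybridizations, as were 27.3% of all probes kept. Besides the 2 called ligands, the genes below 0 in both were IL1B and the receptor IL1R1. IL1B, the other interleukin-1 ligand, had -0.61 and -0.48, and IL1R1 had -0.25 and -0.25. Both were named after their values were seen.

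**Figure D5:**
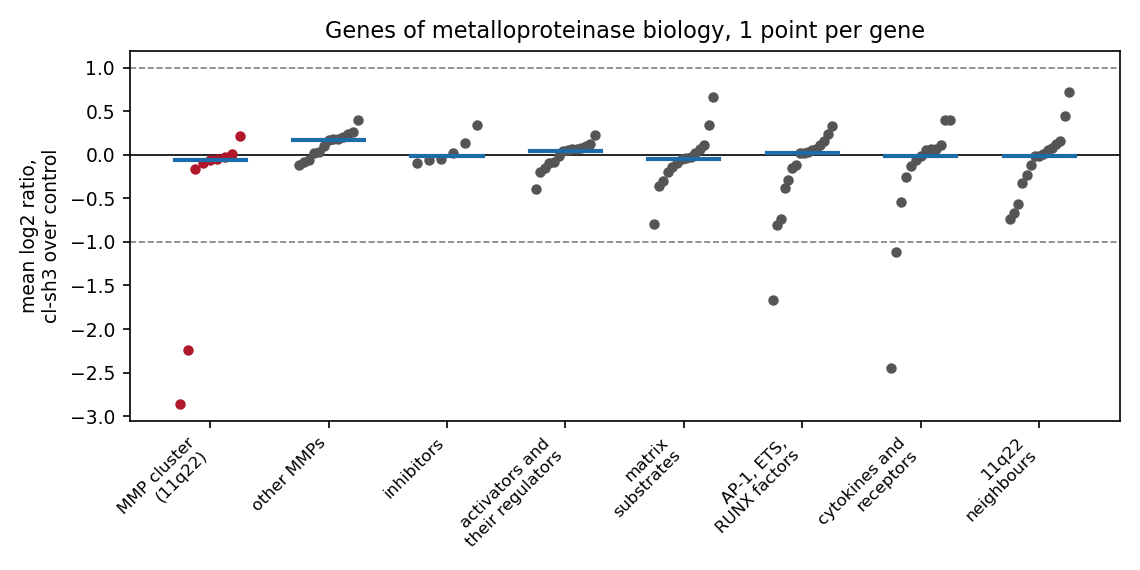
Mean log2 ratio of cl-sh3 over the control clone (y axis) for the 9 MMP genes of 11q22 and for 7 lists of related genes, with 1 point per measured gene, its brightest probe, and a bar at the median of each list. Dashed lines mark 2-fold. MMP1 and MMP13 stand below the line in the cluster, IL1A and FGF2 among the cytokines and RUNX2 among the factors.

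The genes whose pair of ratios was nearest to that of MMP1, by Euclidean distance over the 2 hybridizations among 16149 other genes, were G0S2 (-2.37 and -2.78, distance 0.47), TRIB3 (-3.27 and -2.62, distance 0.53) and IL1A (distance 0.73). Nearest to MMP13 were EDIL3 (-2.33 and -2.17, distance 0.07), ASNS (-2.06 and -2.10, distance 0.24) and DDIT3 (-2.19 and -1.94, distance 0.29). Each of these 6 genes had both RNAs well above background in both hybridizations. The ratios of MMP13 moved with the background correction by more than these distances, and its cl-sh3 reading was well above background in hybridization 2 only, so its neighbours hold for this processing alone. The likeness is that of a single contrast between 1 pair of clones.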

How the data were processed

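The authors deposited scanner files with the intensity of each spot and its local background, read by Agilent Feature Extraction (10.5.1.1 per the file headers, 8.5.1.1 in the submitters' processing notes), with that software's flags and its log10 ratio of Cy5 over Cy3. A second deposited file holds log10 ratios of each array and equals the software's ratio to within 0.005. The deposited intensities are median pixel values and were not normalized.

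The normexp method of limma 3.58.1 (R 4.3.3) was applied to the local backgrounds with an offset of 50, which shrinks the ratios of weak spots. Control spots were then removed, spots with outlier flags (153 and 144) set to missing, and loess run within each array. The mean over the spots gave the value of a probe, and the sign in hybridization 2 was set so that every log2 ratio has cl-sh3 in the numerator. Normalized intensities are channel levels after loess and Aquantile scaling, and net signals are spot minus local background medians. Tables were made with Python 3.11.15, numpy 2.4.6, pandas 2.3.3 and matplotlib 3.10.9.

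The files pair probes with accessions, not symbols. A RefSeq table of GRCh38.p14 named 18024 of the 19228 RefSeq accessions; of these, 1 RUNX2 accession was named from the study's supplementary list. JUND, COL1A1 and WTAPP1 were not matched. Array coordinates were not used. Probe sequences were not used here, so hybridization shared between related members was not tested.

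The members and gene lists were chosen with earlier results of these data known. The text names every member probe, RUNX2, listed genes past the 2-fold rule, the flanking genes, MMP2, MMP9, MMP14, TIMP1 to TIMP4 and the 3 genes nearest to MMP1 and to MMP13. Marker genes, and the genes said to be chosen after their values were seen, stand outside this rule, and 1 marker is not reported here. A gene is its brightest probe unless stated. Tested on simulated data for the cl-sh3 and control comparison (41000 probes), the same steps recovered 200 of 200 changed probes with 0 false calls. Recovery on the measured arrays, for weak probes such as MMP13 or for differences near 2-fold, was not tested.

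The alternatives tried were other background corrections and normalizations, flagged spots kept, other detection filters, the software's ratios, the deposited ratios, each hybridization alone, the 2-fold rule applied to the mean ratio, and both MMP12 probes averaged. The number of arrays limits the precision.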

Additional observations from a re-analysis of the deposited data

How the results depend on the processing

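MMP1 and MMP13 were at least 2-fold lower under each of the 9 alternatives that reprocess the ratios or leave out a hybridization. No member probe was called higher under any. Among the 9, Aquantile scaling alters no ratio by its construction, and the deposited table nearly repeats the software's ratios. Those with a single hybridization could not lose the lower calls, because the rule already required both. Without hybridization 1 or 2, the log2 ratio of MMP1 ran from -2.91 to -2.82 and that of MMP13 from -2.27 to -2.21. The MMP1 ratio was -2.66 when arrays were centred on their median and not by loess. The MMP13 ratio was -2.95 with normexp at offset 0, -1.64 without background correction, -3.81 with the software's own ratios and -3.80 with the deposited table. The cause of the spread of MMP13 was not tested. Requiring both RNAs to be well above background in both hybridizations left 1 member probe called lower, MMP1, because MMP13 did not pass that filter. Over all probes kept, 142 were called lower and 44 higher. These counts were 253 and 103 with the software's ratios, 251 and 103 with the deposited table, and 250 and 93 with the mean ratio in the rule. With hybridization 1 alone they were 506 and 88, with hybridization 2 alone 196 and 219, and with median centring 124 and 77. The mean ratio of MMP3 ran from -0.26 to 0.04, so its sign was not fixed. The mean ratio of MMP27 over both hybridizations stayed between -0.19 and -0.10. With hybridization 1 alone MMP27 was at 0.10, and with hybridization 2 alone at -0.41, so its sign differed between the hybridizations.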

Other observations

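Some genes just outside the metalloproteinase cluster, chosen after their values were seen, moved in opposite directions without passing the 2-fold rule. BIRC3, an inhibitor of apoptosis and a target of NF-kappaB, had log2 ratios of 0.41 and 1.02, while its neighbour BIRC2 had -1.02 and -0.46. The brighter probe of YAP1, a transcriptional coactivator of the Hippo pathway, had 0.03 and 0.14, and its dimmer probe 0.40 and 1.49. Among the factors that bind MMP promoters, 3 more genes were chosen after their values were seen. JUNB had -0.85 and -0.77 with its brighter probe and -0.08 and -0.37 with the other. ETS1 had -0.75 and -0.74 with its brightest probe, and 0.13 and 0.17, and -0.30 and -0.03, with the other 2. ETV5 had -0.39 and -0.37 with its brighter probe and -0.97 and -0.85 with the other. Of the 16 measured factors, 7 were below 0 in both hybridizations and 5 above, beside 27.3% and 29.8% of all probes kept.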
